A study of Mus musculus with 4 samples.

Results

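The 10 genes described here build the chromosome axis and the synaptonemal complex of meiosis: Sycp1, Sycp2, Sycp3, Syce1, Syce2, the meiotic cohesin genes Stag3, Rec8 and Smc1b, and the HORMA-domain genes Hormad1 and Hormad2. Their members are the listed small RNA sequences that match, over their whole length, a GENCODE M21 transcript of 1 of these genes and of no other gene in either orientation. The rule found 1911 sequences out of 4906138 in the table, of which 1890 were sense and 21 antisense. The RNAs had been immunoprecipitated with MILI (Piwil2), a PIWI protein of the mouse germline, from the testes of 14 dpp (days post partum) mice of strain C57BL/6. The study made 4 libraries, 2 from Tdrd9+/- and 2 from Tdrd9-/- testes, to ask how MILI-bound RNAs change when the helicase TDRD9 is lost. The heterozygous controls also carry a mutant Tdrd9 allele, and the labels do not describe that allele or say whether animals were pooled. The table lists each distinct sequence once, with its mm9 position and with no read count or library. The genotypes could therefore not be compared, no replicate error could be had, and the depth per library is unknown. Every value below describes the pooled list. Intervals are exact 95% intervals for counting error over distinct sequences or ends only, and sequences from the same transcript are not replicates.

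In meiotic prophase, sister chromatids are organised into loops along a protein axis, and the axes of homologous chromosomes are then zipped together by the synaptonemal complex. SYCP2 and SYCP3 form the axis, or lateral element, SYCP1 the transverse filaments that bridge the homologues, and SYCE1 and SYCE2 the central element. REC8, STAG3 and SMC1B are meiosis-specific subunits of cohesin, the ring complex that holds chromatids together, and HORMAD1 and HORMAD2 mark axes that have not yet synapsed. MILI-bound piRNAs are cut from long single-stranded RNAs, messenger RNAs among them, and primary piRNAs usually begin with U.

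The sequences below show what the MILI-bound RNAs of these genes look like. For each gene, the 5′ end shared by the most distinct sequences was taken, and its 27-nt form is printed. Letters are as in the table, with T for U, and the capitals mark positions 1 and 10.
Sycp1: TaaaaacagAgagcaagaacagtcatc
Sycp2: TcaacatacGcagaggactacagtcat
Sycp3: TaaagatggTgcctggtggaagaaagc
Syce1: TaaacctgtAgaagtccacgaggagac
Syce2: TcggcagagTgagaaccacgaggagac
Stag3: TgataagatGaagctggctgagcacct
Rec8: TtagaactgCtgatcgcagagaaagat
Smc1b: TccagacacCgaagaccaagaaggcag
Hormad1: TaatatgctGtattatttgaaggtgtg
Hormad2: TaggatatgTgtggaggtgcttagcca
All 10 begin with U, and 2 of them, those of Sycp1 and Syce1, have A at position 10. In mm9 they lie at chr3:102656058-102656084 (Sycp1, minus strand), chr2:178081070-178081096 (Sycp2, minus), chr10:87925214-87925240 (Sycp3, plus), chr7:147963597-147963623 (Syce1, minus) and chr8:87396684-87396710 (Syce2, plus). The others lie at chr5:138740394-138740420 (Stag3, plus), chr14:56241300-56241326 (Rec8, plus), chr15:84895459-84895485 (Smc1b, minus), chr3:95391425-95391451 (Hormad1, plus) and chr11:4246132-4246158 (Hormad2, minus). Those of Hormad1 and Hormad2 are in the 3′ UTR, and the other 8 are in coding sequence.

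Germ cell genes had many sense sequences, and most markers of somatic cells and spermatids had few or none. Over all 21951 protein-coding genes, 56.3% reached 10 sense sequences and 37.8% reached 50. All 6 germ cell genes checked had 61 or more sense sequences, including Piwil2 with 452, Dazl with 288 and Stra8, which is switched on at meiotic entry, with 211. Of 6 Sertoli cell markers, Sox9 alone reached 10 sense sequences, with 27, and Gata1 and Rhox5 had 0. Of 5 Leydig cell markers, 4 had 0 in sense and Cyp11a1 had 1. Of 5 spermatid genes, 4 had 0 in sense, Prm1 and Prm2 among them. The exception was Tnp1, whose 19 sense sequences on a short transcript gave 29.7 ends per kb, a density close to that of Sycp2. Antisense sequences numbered 55 for the Sertoli cell markers, with 37 for Amh and 13 for Gata1, and 34 for the spermatid genes, with 24 for Prm1. In MILI-bound RNA from whole testis, fewer or no cells of a type, less RNA per cell and less binding to MILI cannot be told apart.

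All 10 genes gave MILI-bound sequences from their sense strand. Each had at least 80 distinct sense sequences, and 7 had over 100, against a background in which 56.3% of 21951 protein-coding genes reached 10, 37.8% reached 50 and 24.9% reached 100. Density, the number of distinct 5′ ends divided by the length of the longest transcript in kb, had a median of 46.8 over the 10 genes, against 5.74 over all protein-coding genes, of which 6005 had no sense sequence. With the ends and lengths of all genes summed, the gap was smaller, 43.7 ends per kb against 19.1. The lowest and the highest of the 10 were Rec8 at 26.6 and Syce1 at 67.8, which stood at the 79.3rd and the 95.6th percentile of protein-coding genes. The order at the top depended on the transcript: on the one with the longest coding sequence, Syce2 was the highest at 104 and Syce1 stayed at 67.8.

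Among the synaptonemal complex genes, counted on the longest transcripts, the central element genes Syce1 and Syce2 had the highest values. Syce1 had 164 sequences at 99 ends, a density of 67.8 ends per kb (55.1–82.6). Syce2 had 185 sequences at 103 ends, a density of 61.1 (49.9–74.1). The transverse filament gene Sycp1 had 245 sequences at 157 ends, a density of 45.7 (38.8–53.4). The axis gene Sycp2, with the longest of the 10 transcripts at 5717 nt, had 227 sequences at 169 ends and the lowest density of these 5, at 29.6 (25.3–34.4). The intervals of Syce1 and Syce2 overlapped each other, and both lay above that of Sycp2.

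Sycp3 depended most on how its sequences were counted. It had 140 sequences at 67 ends, or 57.3 ends per kb (44.4–72.8), but a further 59 sense sequences were left out because they are also antisense to Chpt1, a phospholipid synthesis gene on the opposite strand. With them Sycp3 had 199 sequences at 105 ends, or 89.8 ends per kb, the highest value of the 10 genes. On the Sycp3 transcript with the longest coding sequence, 29 added ends lay between positions 612 and 1095, and 24 of them were in coding sequence. Every end found from position 612 on was among those left out. Whether the ends of Sycp3 are concentrated upstream therefore cannot be read from the counted ends, since the counting rule removed the downstream ones. On the longest transcript, which is a different one with its own positions, 39 counted ends (58.2% of those on it) fell between positions 32 and 231.

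**Figure D1:**
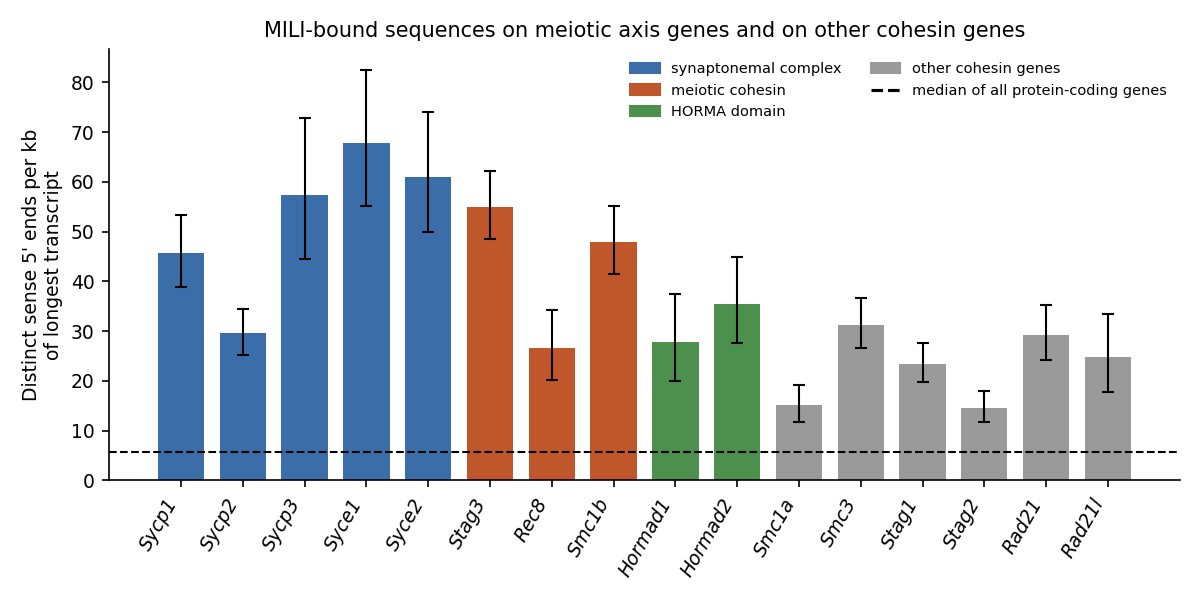
Bars give the density of distinct sense 5′ ends (ends per kb) on the longest transcript of the 10 genes and for 6 other cohesin genes in grey, with exact 95% counting intervals, and the dashed line is the median of all protein-coding genes (5.74). Syce1 is the highest at 67.8 and Rec8 the lowest of the 10 at 26.6, while Smc1a and Stag2 stand near 15.

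The meiotic cohesin genes fell into a dense pair and a sparse member. Stag3, the meiotic SA-type subunit, had the most sequences of all 10 genes, 392 at 257 ends, and a density of 55.04 ends per kb (48.5–62.2). Smc1b had 283 sequences at 194 ends and a density of 47.9 (41.4–55.2). Rec8, the cleavable kleisin that links the ring, had 80 sequences at 58 ends and a density of 26.6 (20.2–34.3), below the intervals of both others. Against their counterparts, of which all but Rad21l also work in mitotic cells, Smc1b and Stag3 were denser and Rec8 was not. Smc1a, the counterpart of Smc1b, had 15.1 ends per kb (11.8–19.1), and Smc3, the partner of both, had 31.3 (26.6–36.7). Stag1 had 23.4 (19.8–27.6) and Stag2 14.6 (11.7–17.9), both below Stag3. Among the kleisins the intervals overlapped, with Rad21 at 29.3 (24.2–35.2), the meiotic Rad21l at 24.7 (17.7–33.5) and Rec8 at 26.6. Smc1a and Stag2 lie on the X chromosome, and the part of chromosome, RNA level or cell type in these differences was not tested.

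The HORMA-domain genes were among the sparser members. Hormad2 had 93 sequences at 70 ends, a density of 35.6 ends per kb (27.7–44.9). Hormad1 had 81 sequences at 42 ends, a density of 27.8 (20.03–37.6). Their intervals overlapped each other and those of Rec8 and Sycp2. The Hormad1 count holds 8 sequences that lie outside the gene, on chromosome 15, and without them it had 73 sequences at 39 ends, or 25.8 per kb.

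Those 8 sequences belong to a wider group that matches Hormad1 or Sycp1 but is listed elsewhere in the genome, and every sequence of the group crosses an exon junction of the spliced messenger RNA. Of the sequences sense to Sycp1, 18 were listed at mm9 positions 19371997 to 19373464 of chromosome 7, plus strand, and also matched the processed pseudogene Sycp1-ps1. Of those sense to Hormad1, 17 lay on the plus strand of chromosome 6 between 12807496 and 12808268 and also matched the processed pseudogene Gm15529. The 8 on chromosome 15 lay on the minus strand between 90960320 and 90960361 and matched no other annotated transcript. In all, 43 sequences of the 10 genes lay off the gene's own chromosome, and 43 of these 43 crossed an exon junction of every member transcript that holds them. Examples are printed with the upstream exon in lower case and the downstream exon in capitals, because the position of the junction is what sets them apart.
Sycp1 at chromosome 7: ttggaaaccagagagAAAGAAGTCCATGA
Hormad1 at chromosome 6: tgatcattctagctGTATACACCAATCC
Hormad1 at chromosome 15: caggcggtgcgtaaaAAAATATTTCTTG
They lie at chr7:19372907-19372935, chr6:12807506-12807533 and chr15:90960333-90960360. The shorter side of the junction was up to 14 nt long among the 43, with a median of 8 nt. At the genes' own loci 29 sequences crossed a junction, with at most 2 nt on the shorter side.

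Neither pseudogene had a sequence of its own. Sense sequences matching Sycp1-ps1 but no other gene numbered 0 on its 2768 nt, and those matching Gm15529 alone numbered 0 on its 994 nt. Within each of the 3 stretches every listed sequence lay on the strand that reads like the messenger RNA, and 16 of the 18, 13 of the 17 and 7 of the 8 began with U. A listed sequence has only 1 position in the table, and one within an exon would match the gene's own locus as well. That all those listed elsewhere crossed a junction may therefore follow from how positions were listed, which was not tested. Of 3411 windows of 27 nt on the longest Sycp1 transcript, 468 lay within an exon and were shared in sense with another gene, and for Hormad1 452 of 1485 did. The sequences listed as shared with the pseudogenes, 18 of 18 and 17 of 17, crossed a junction. Whether the 43 sequences came from the genes' messenger RNAs or from transcripts of the places where they are listed was not tested.

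Few sequences across exon junctions were listed at the genes' own loci, as the 29 above show, though such windows are common. Over the longest transcripts of the 10 genes, 18.6% of 27-nt windows crossed a junction and 7.19% were also found in a transcript of another gene. The share of windows within an exon and in no other gene ran from 30.9% in Sycp3 and 43.6% in Hormad1 to 92.95% in Syce2. Counted over those windows only, the median density was 59.996 ends per kb. The order among the synaptonemal complex genes changed: Sycp3 stood at 184, Syce1 at 85.6, Sycp1 at 71.1, Syce2 at 66.1 and Sycp2 at 36.7. The Sycp3 value covers only 353 of its 1143 windows and is not a density of the whole transcript. With the shared ends included, that density was 89.8. Hormad1 stood at 58.6, Hormad2 at 36.1 and Rec8 at 33.5. Hormad1 therefore lost its place among the sparsest genes when windows that could not be counted were left out, and Rec8 remained the lowest. The counterpart genes stood at 17.3 (Smc1a), 26.6 (Stag1), 16.8 (Stag2), 31.9 (Rad21) and 29.5 (Rad21l), against 56.2 for Smc1b and 61.3 for Stag3.

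**Figure D2:**
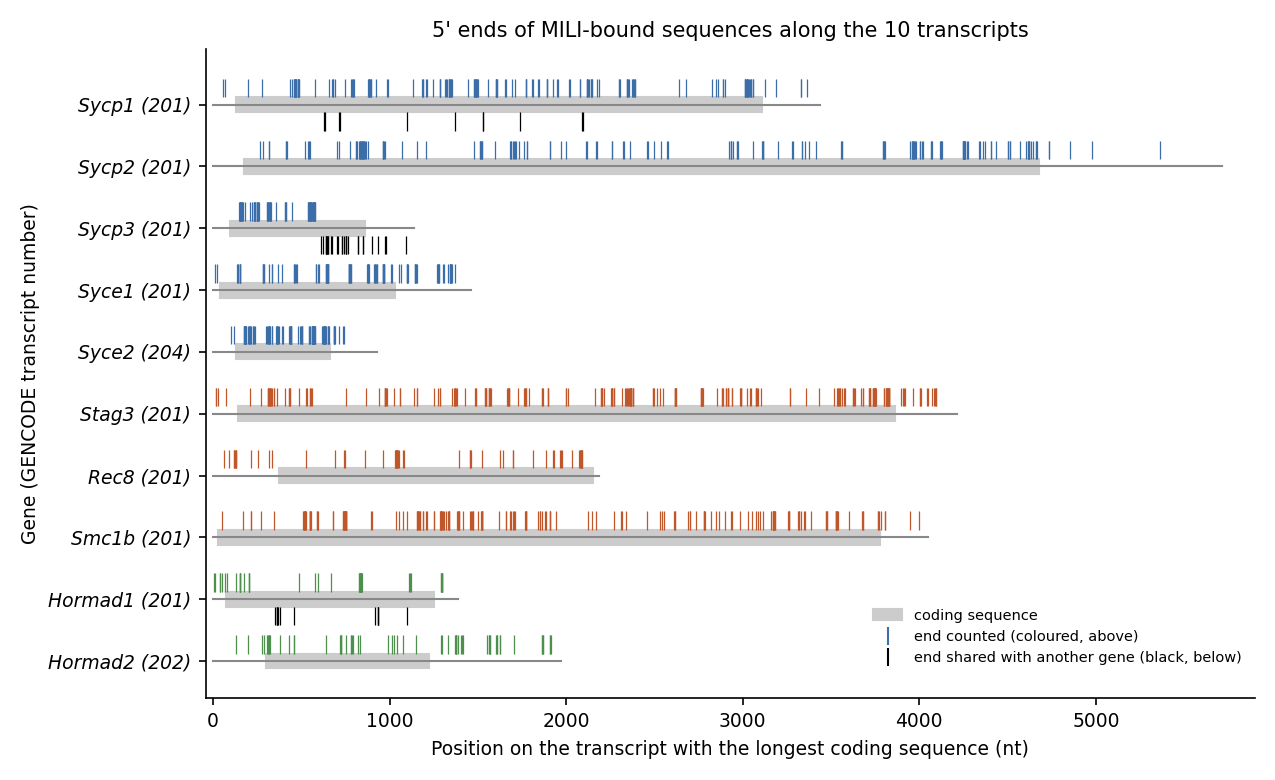
Each row is the transcript with the longest coding sequence, with position in nt on the horizontal axis, coding sequence in grey and UTRs as lines; ticks above are counted 5′ ends and black ticks below are ends left out because they match another gene. Sycp3 has counted ends up to the start of its Chpt1 overlap and shared ends beyond it, and the 3′ UTR of Sycp2 is nearly bare.

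The ends lay mainly in coding sequence. On the transcript with the longest coding sequence, 1041 of 1176 ends were in the coding sequence (88.5%, 86.6–90.3%), which makes up 79.8% of the nucleotides. The 3′ UTRs held 103 ends (8.76%, 7.21–10.5%) on 14.7% of the nucleotides, and the 5′ UTRs 32 ends (2.72%, 1.87–3.82%) on 5.58%. Over all protein-coding genes the coding sequence held 48.05% of ends and the 3′ UTR 48.3%, on 52.5% and 40.4% of the nucleotides. Per kb, the 10 genes had 49.3 ends in coding sequence and 26.5 in 3′ UTR, a ratio of 3′ UTR to coding sequence of 0.539, against 17.1 and 22.3 and a ratio of 1.31 over all protein-coding genes. Their density thus differed from the whole by more in coding sequence than in 3′ UTR. No test was made of this difference, since genes of the pooled list are not replicates of a condition.

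The genes differed in where their ends lay. Coding sequence was denser than 3′ UTR in 8 of the 10 genes and 3′ UTR in 2, Hormad1 and Hormad2. With limits of 50 ends and 100 nt in each region, 8 genes remained, and 1 of them, Hormad2, had the denser 3′ UTR, against 42.8% of 6343 protein-coding genes within the same limits. Syce2 had the densest coding sequence, with 87 ends on 534 nt, or 163 per kb, against 29.96 per kb in its 3′ UTR. Sycp3 followed with 67 ends on 765 nt of coding sequence, or 87.6 per kb, and 0 counted ends in its 277-nt 3′ UTR. With the sequences shared with Chpt1 the Sycp3 values became 119 in coding sequence and 18.1 in 3′ UTR. Sycp2 had 164 ends in coding sequence and 5 in a 3′ UTR of 1040 nt, which is 36.4 against 4.81 per kb. Sycp1 had 50.3 against 15.3 and Smc1b 50.4 against 18.3 per kb.

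The other genes had weaker or opposite contrasts. Syce1 was even, with a coding density of 68.7 ends per kb and a 3′ UTR density of 67.1. Stag3 had 58.3 and 42.98. Hormad2 had 30 ends in 748 nt of 3′ UTR and 28 in 921 nt of coding sequence, or 40.1 against 30.4 per kb. Hormad1 had 6 ends in 134 nt of 3′ UTR, or 44.8 per kb, against 23.7 per kb of coding sequence. All 12 ends it shares with its pseudogene lie in coding sequence, and with them that value became 33.9. Rec8 has an annotated 3′ UTR of 34 nt with 0 ends, and 12 of its 55 mapped ends were in its 5′ UTR, at 32.1 per kb against 24.2 in coding sequence. The 5′ UTR of Hormad1 had 83.3 ends per kb, from 6 ends on 72 nt, and 41.7 without the sequences on chromosome 15. The transcripts used did not hold 40 of the 1216 ends, 21 of them in other Stag3 transcripts.

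**Figure D3:**
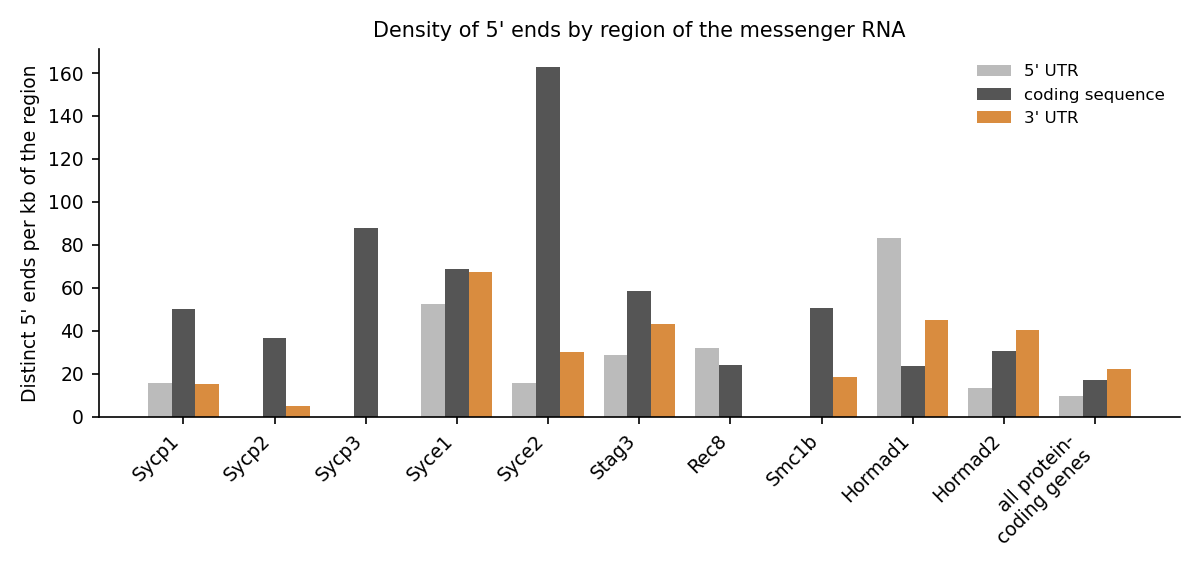
Bars give distinct 5′ ends per kb of 5′ UTR, coding sequence and 3′ UTR for each gene and, at the right, for all protein-coding genes, where the 3′ UTR is the densest at 22.3. Syce2 reaches 163 per kb of coding sequence, and Hormad1 and Hormad2 have a 3′ UTR denser than their coding sequence.

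Sequences of the 10 genes began with U less often than those of protein-coding genes as a whole, and with A more often. U came first in 62.3% (60.1–64.5%) against 69.3%, and A in 20.4% against 13.1%. The transcripts themselves were similar in U, at 24.98% of nucleotides against 25.7%. Per 100 U in the longest transcripts, 9.59 were the first base of a listed end, against 3.22 per 100 A, 2.12 per 100 C and 2.21 per 100 G. Over all protein-coding genes these values were 4.69, 1.15, 0.938 and 0.756. U was therefore used 3.65 times as often as the other bases in the 10 genes and 4.91 times as often in all protein-coding genes. With each end counted once, U came first in 54.9% of ends in the 10 genes and in 63.0% in all protein-coding genes. Within coding sequence the gap over ends was smaller, 53.7% (50.6–56.8%) against 58.4%. These coding sequences had 22.97% and 22.4% U. In 3′ UTR the 2 values were 67.96% (58.04–76.8%) and 66.3%. A low share of 5′ U was not particular to the 10 genes. Over sequences it was 64.6% (61.5–67.7%) in 8 further synaptonemal complex and axis genes, described below, where U was used 3.48 times as often. It was 66.04% (64.3–67.7%) in 18 other cohesin genes and regulators. In 18 meiotic recombination genes it was 68.3% (66.8–69.7%), an interval that held the 69.3% of all protein-coding genes.

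The genes spread widely around the pooled value. Syce2 had the lowest share of 5′ U, 44.9% (37.6–52.3%), on a transcript with 25.7% U. Rec8 followed with 53.8% (42.2–64.97%) and Syce1 with 58.5% (50.6–66.2%), on transcripts with 20.5% U each. The highest shares were 74.2% (64.1–82.7%) in Hormad2, 72.8% (61.8–82.1%) in Hormad1 and 70.5% (64.1–76.3%) in Sycp2. Relative to the other bases, U was used 1.91 times as often in Syce2 and 5.79 times as often in Hormad2. Stag3, the gene with the most sequences, stood at 62.2% (57.2–67.1%), close to the pooled value. The interval of Syce2 lay below those of Sycp1, Sycp2, Sycp3, Stag3, Smc1b, Hormad1 and Hormad2.

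**Figure D4:**
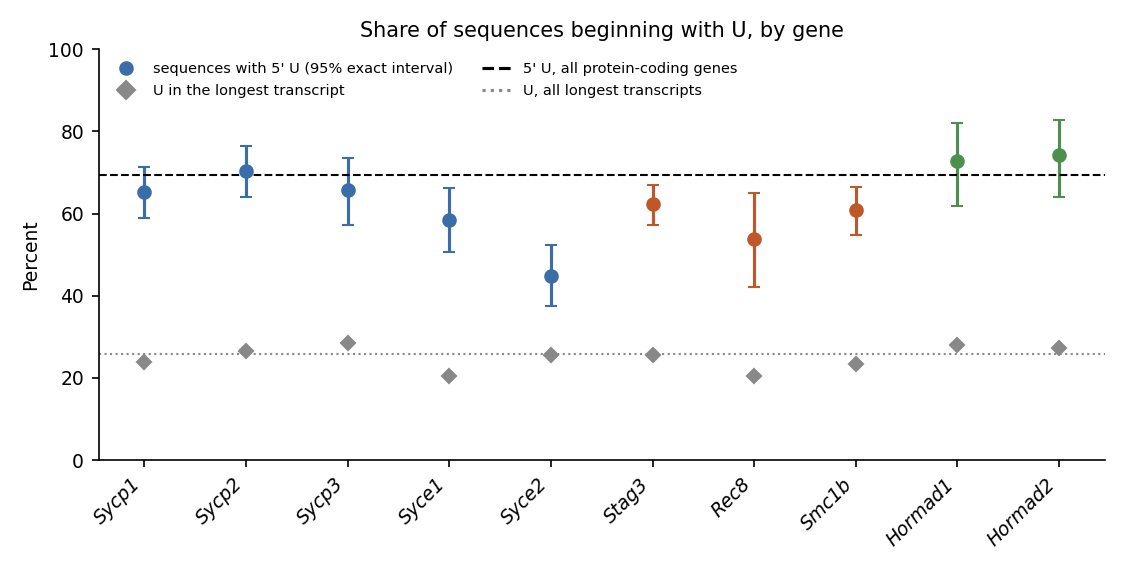
Circles give the percent of sequences beginning with U for each gene with exact 95% intervals, grey diamonds the percent of U in its longest transcript, and lines the same 2 values over all protein-coding genes (69.3% and 25.7%). Every gene lies far above its diamond, Syce2 the least, at 44.9%.

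Ends found with several lengths began with U more often. Of the 1216 ends, 795 had 1 sequence, 365 had 2 or 3, and 56 had 4 or more. The share with a 5′ U was 46.7% (43.2–50.2%), 67.1% (62.04–71.9%) and 91.1% (80.4–97.04%) in these classes, against 56.3%, 73.9% and 88.4% over all protein-coding genes. The gap to protein-coding genes as a whole was thus seen in ends with up to 3 sequences. With 56 ends, the interval of the fullest class was too wide to tell whether a similar gap was present there. No end had more than 6 sequences, and 4 ends had 6. The fullest end of Hormad1, in its 3′ UTR, is printed to show such a series, in which the 5′ end is fixed and the 3′ end moves by 1 nt at a time. Capitals again mark positions 1 and 10.
Hormad1, 25 nt: TaatatgctGtattatttgaaggtg
Hormad1, 26 nt: TaatatgctGtattatttgaaggtgt
Hormad1, 27 nt: TaatatgctGtattatttgaaggtgtg
Hormad1, 28 nt: TaatatgctGtattatttgaaggtgtgc
Hormad1, 29 nt: TaatatgctGtattatttgaaggtgtgcc
Hormad1, 30 nt: TaatatgctGtattatttgaaggtgtgcct
The series starts at position 95391425 of chromosome 3 and its longest form ends at 95391454.

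**Figure D5:**
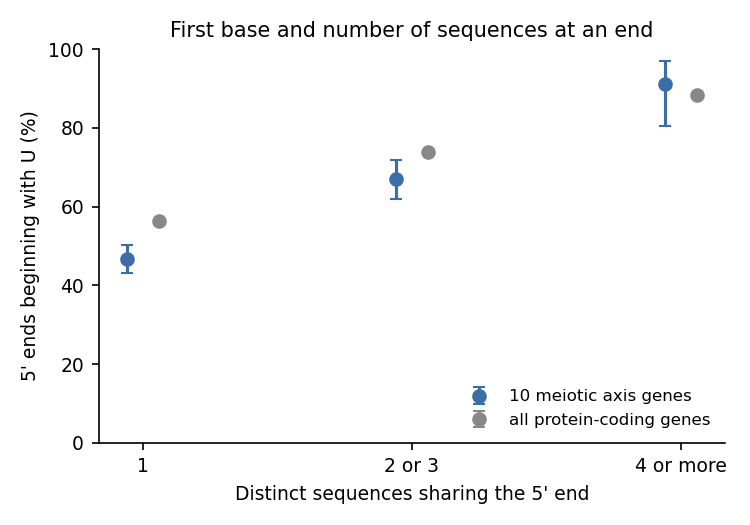
The percent of 5′ ends that begin with U is plotted against the number of distinct sequences sharing the end, for the 10 genes and for all protein-coding genes, with exact 95% intervals. In the 10 genes the share goes from 46.7% at ends with 1 sequence to 91.1% at ends with 4 or more.

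The sequences had piRNA lengths, and over the 10 genes together neither A at position 10 nor U after the 3′ end stood outside the range of neighbouring positions. The shortest was 20 nt and the longest 32 nt, 27 nt was the most frequent length, and the mean was 27.3 nt (SD 1.28). RNAs of about 28 to 30 nt had been cut from a gel, and that class made up 43.3% of the sequences, against 37.9% for all protein-coding genes. A at position 10, the mark of piRNAs made by slicing, was carried by 37.04% (34.9–39.3%), within the range of 33.9% to 39.3% at positions 11 to 18. Sequences with and without a 5′ U had it in 37.4% and 36.4% of cases. Sycp1 had the highest share, 49.8% (43.4–56.2%), against 45.4% A on average at its positions 11 to 18, and 41.5% of its transcript is A. Sycp3 had the lowest, 25.7% (18.7–33.8%), against 36.96% A on average at its positions 11 to 18. The base after the 3′ end, which is often U where the next piRNA is cut directly downstream, was U in 25.4% of cases (23.5–27.5%). The following 9 positions had 22.5% to 25.7% U. The highest values were 38.3% (27.7–49.7%) in Hormad1 and 35.5% (25.8–46.1%) in Hormad2, and the lowest 18.8% (14.1–24.2%) in Sycp1. For the 2 HORMA-domain genes together, which had the highest values of the 10, U followed in 36.8% (29.6–44.4%). Their following 9 positions had 19.5% to 32.2%, with a mean of 26.2%. The 36.8% thus lay above all 9, and only the nearest of them, at 32.2%, was above the lower limit of its interval. A 5′ end lay directly after a 3′ end in 67 cases, against a mean of 59.8 and a range of 45 to 76 for distances of 2 to 20 nt.

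Antisense sequences were few and sat at the start of the genes. They numbered 21, or 1.099% of the members (0.681–1.67%), against 4.74% over all protein-coding genes. They came from 4 genes, and 44.3% of protein-coding genes had at least 1. Sycp1 had 11 at 8 distinct ends, Syce2 5 at 3 ends, Stag3 3 at 1 end and Rec8 2 at 2 ends. All 21 lay within the first 315 nt of a matching transcript, and so within the first 500 nt. Of the antisense sequences of all protein-coding genes, 23.9% lay within the first 500 nt. Those of Syce2 reached up to 36.3% of the length of a matching transcript. For Sycp1 the antisense sequences lay between positions 45 and 186 of a transcript of 3437 nt, and for Rec8 between 283 and 315. Of the 21, 18 began with U and 4 had A at position 10. Opposite-strand ends overlapping a sense end by 10 nt, the distance left by slicing, numbered 1, in Sycp1, against 0 to 2 at the other overlaps of 1 to 20 nt.

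Other genes of the same machinery were described with lists written from general knowledge, but with earlier results of these data known. For all protein-coding genes, 56.3% reached 10 sense sequences and the median density was 5.74 ends per kb. Among 8 further synaptonemal complex and axis genes, 8 of 8 had 10 or more sequences, and the median density was 48.5 ends per kb. The fullest was Ccdc36, whose product promotes double-strand break formation on the axis, with 250 sequences. Syce3, the third central element gene, had 110 sequences on 480 nt, or 144 ends per kb, at the 99.5th percentile of protein-coding genes. Six6os1, another central element gene, had 187 sequences at 55.1 per kb, whereas Tex12 had 20 at 16.9. These 3 central element genes are named with their values already known. A list of 18 mitotic and shared cohesin genes and regulators also held the meiotic Rad21l. Its median was 23.5 ends per kb and 18 of 18 reached 10 sequences, and the cohesin loader gene Mau2 was the fullest with 633. For the 18 meiotic recombination genes the median was 32.8 and 16 of 18 reached 10 sequences, from Mnd1 with 6 to Tex15 with 1196 sequences. No list was tested against another.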

How the data were processed

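MILI-bound small RNAs of 14 dpp testes were sequenced with an Illumina small RNA kit after gel elution, per the labels' protocols. Per the file headers, the deposited table gives a sequence with its chromosome, start, end and strand. Positions are on mm9, according to the submitters' processing notes. For the aligner, mismatches and filters, the sources used here give nothing. The planned edgeR comparison of genotypes was not run, since the table has neither counts nor libraries.

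Every sequence was matched in full, in both orientations, to 141767 GENCODE M21 transcripts. That annotation is on GRCm38, and only its sequences, names, exon lengths and coding limits were used. Sequences were assigned where 1 gene matched in either orientation. Tested on simulated data, the matching recovered 500 of 500 planted sequences and matched 0 of 500 random ones. The naming rule took all 10 genes, their cohesin counterparts and the fullest gene of each pathway list; Smc3, the other central element genes, Mnd1 and the markers were added with their values known. Printed sequences come from the fullest end of each gene, ties to the smaller start. The members and lists were chosen with earlier results of these data known. Six6os1 is named 4930447C04Rik in GENCODE M21. Immunoglobulin and T-cell receptor segments were not counted as protein-coding genes. Intervals are exact Clopper-Pearson for shares and exact Poisson for densities. Alternatives covered sequences of 24 to 31 nt, ends in place of sequences, shared sequences, other transcripts, leaving out Stag3, a minimum of 50 and, chosen after seeing the data, the gene's own chromosome and another transcript for each gene. The tools were numba 0.67.0, numpy 2.4.6, scipy 1.17.1, pandas 2.3.3 and matplotlib 3.10.9 under Python 3.11.15.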

Additional observations from a re-analysis of the deposited data

How the results depend on the processing

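Of 21 alternative values computed for the summary results, 20 stayed within the counting interval of a share, or within 1.5 times a count or density. The exception was the share of sequences with a 5′ U, which was 54.9% when each 5′ end was counted once in place of each sequence, since ends with several sequences begin with U more often. Counting the sequences shared with another gene gave 1984 sense sequences in place of 1890 and a median of 48.4 ends per kb in place of 46.8. No paired analysis was possible because the table names no library. Leaving out each replicate was not run for the same reason. Abundant and rare RNAs count alike in a list of distinct sequences, so densities saturate in RNAs that were sampled deeply, and an RNA present in 1 library cannot be told from one present in all 4.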

Other observations

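Sequences from the introns of these genes were listed as well, at a much lower density than those from exons. Between the outermost sense matches of the 10 genes, 433 sequences lay on the gene's strand and matched no transcript, at 383 distinct ends on 414 kb, or 0.924 ends per kb. The exonic densities were 18.4 times as high in Syce2 and 39.8 times in Sycp1, and 183 times in Sycp3. Sycp1 held 155 of the unmatched sequences, Hormad2 88, Smc1b 52 and Syce2 51, whereas Sycp3 held 3. A 5′ U was carried by 76.9% of them, against 62.3% of the exonic sequences. The share of U in the introns was not computed, so base composition was not taken into account. The opposite strand of the same stretches held 23 unmatched sequences. Unannotated exons and independent transcripts within the introns were not told apart from introns.

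Sequences on the opposite strand were also listed upstream of several of the genes. In the 2000 nt before the first sense match, Syce1 had 19 such sequences, Sycp1 15, Syce2 10, Rec8 4 and Hormad1 4, and all but 1 of Syce2 matched no transcript. Stag3 had 14, with matches to Gpc2 and Gm43720, and Smc1b had 32, with matches to Ribc2 and 6 without any match. Sycp2, Sycp3 and Hormad2 had 0.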
